A study of Mus musculus with 18 samples.

Results

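The angiogenic and repair growth factors followed here are secreted ligands that macrophages release toward vessels, fibroblasts, epithelium and other leukocytes. They are 10 genes, chosen by name: Vegfa, Pdgfa, Pdgfb, Hbegf, Areg, Ereg, Osm, Lif, Tgfb1 and Igf1. Of these, 9 had a named probe among the 17711 genes with one, and 8 passed the detection filter among the 10806 genes tested. Areg had no named probe and was not analysed here. Ereg had 2 probes that were not well above background on any array.

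The study measured RNA of EGFP-bright cells sorted from MacGreen mice, aged 10 to 16 weeks, on the C57Bl/6J background. In this reporter line EGFP is under the Csf1r promoter and marks myeloid cells, so every group consists of Csf1r reporter-positive cells and none of unsorted tissue. A sterile object was placed free in the peritoneal cavity. Cells floating in the cavity were collected by lavage at day 0 (mice without an implant), 2, 4, 7 and 14, and cells of the tissue capsule that formed around the object were taken from other mice at day 7, 14, 21 and 28 after collagenase digestion, which the lavage cells did not undergo. Each of the 9 groups has 2 bead arrays, 18 in all. RNA was pooled before hybridisation. Nothing in the labels tells if a group's 2 arrays stem from different animals or pools, so p-values here reflect array-to-array spread alone, possibly technical. The number of arrays limits the precision.

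As background, VEGF-A is the main driver of new vessel growth and is induced when oxygen is low. The PDGF chains recruit pericytes, smooth muscle cells and fibroblasts. HB-EGF, amphiregulin and epiregulin are membrane-anchored EGF receptor ligands that are released by cleavage. Oncostatin M and LIF are IL-6 family cytokines that signal through the shared subunit gp130 and STAT3. TGF-beta 1 is secreted in a latent form and drives matrix production once released, and IGF-1 supports growth and survival of tissue cells during repair. In a foreign body response, macrophages collect on the implant and a vascularised fibrous capsule grows around it.

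The upstream sequences of Vegfa and Lif are shown as examples. No capsule array of either gene overlapped a lavage array, but the same held for Pdgfa, Pdgfb, Hbegf and Osm on the probe used. Both are the 250 bases before the annotated start, 5′ to 3′ on the gene's strand, from RefSeq on GRCm38.p6. Capitals mark matches on either strand to 4 motifs: ACGTG, the core of the hypoxia response element; TGANTCA, the AP-1 site; TGACGTCA, the cAMP response element; and TTCNNNGAA, the STAT site. No motif holds another of the 4, though neighbouring matches could overlap.
Lif, chr11:4257318-4257567, plus strand: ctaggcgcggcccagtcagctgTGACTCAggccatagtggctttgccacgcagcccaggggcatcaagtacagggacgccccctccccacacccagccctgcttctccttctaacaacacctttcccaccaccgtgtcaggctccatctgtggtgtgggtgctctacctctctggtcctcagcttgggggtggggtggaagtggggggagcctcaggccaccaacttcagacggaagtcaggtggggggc
Vegfa, chr17:46032378-46032627, minus strand: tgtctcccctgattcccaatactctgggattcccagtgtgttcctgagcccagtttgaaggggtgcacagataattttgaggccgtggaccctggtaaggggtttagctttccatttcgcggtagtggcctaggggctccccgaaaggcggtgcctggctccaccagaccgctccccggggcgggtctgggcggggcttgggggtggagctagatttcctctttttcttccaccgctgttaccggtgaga
The Lif window held 1 match, to TGANTCA, from base -228 to -222 before the start. The Vegfa window held none of the 4, while that of a second annotated Vegfa start, not shown, held ACGTG from -211 to -207. Among all 32851 windows of the same length, 16.6% held ACGTG, 6.75% TGANTCA, 1.55% TGACGTCA and 7.02% TTCNNNGAA. A match is a description of letters and not a bound site. Entries were read for 6 members. Osm and Lif lie next to each other on chromosome 11, as do Ereg and Areg on chromosome 5.

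All levels below are background-corrected, quantile-normalised log2 intensities, and a gene's level is comparable across arrays but not with that of another gene. A change is a difference of group means on that scale with its standard error (SE), tested with limma across all 10806 genes, and it is called where the Benjamini-Hochberg adjusted p is under 0.05. The lavage groups and capsule day 7 had their replicate 1 on slide 1 and their replicate 2 on slide 2. Both capsule day 14 arrays were on slide 3, and those of day 21 and 28 on slide 4. Mean intensity per array was 585 to 1053 on slides 1 and 2 and 455 to 528 on slides 3 and 4, with 16442 to 17559 and 18311 to 19345 probes detected. The 2 arrays of a group correlated at 0.989 to 0.993 over genes. Of 10 myeloid identity genes, 8 were measured (Csf1r and Cd68 were not analysed here). Each of the 8 was detected in every group, except Fcgr1 at lavage day 14. In bulk RNA of this kind, fewer cells of a type and less RNA per cell cannot be told apart.

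In the lavage cells, Vegfa rose within 2 days of implantation and stayed up to day 14, Osm was higher than at day 0 on each later day, and Igf1 first fell and then rose above its starting level. At day 2, 3 of the 8 growth factors rose (Vegfa, Pdgfb, Osm) and 2 fell (Pdgfa, Igf1), where 25% of all genes tested changed, 13.3% higher and 11.7% lower. At day 4, 5 rose (Vegfa, Pdgfb, Hbegf, Osm, Lif) and 0 fell, beside 28% of all genes in either direction, 15.4% higher and 12.6% lower. At day 7, 4 rose (Vegfa, Hbegf, Osm, Igf1) beside 28.6% (15.1% higher, 13.5% lower), and at day 14, 4 rose (Vegfa, Pdgfb, Osm, Igf1) beside 19.8% (10.3% higher, 9.5% lower). The median change of the 8 was 0.22, 0.66, 0.65 and 0.87 in turn, while that of all genes was 0.04, 0.04, 0.01 and 0.03. The 4 comparisons share the day 0 arrays. From day 2 to day 14, Pdgfa and Igf1 rose and Tgfb1 fell, with 25.9% of all genes changed, 12.7% higher and 13.2% lower. Scaling each array to its median in place of quantiles moved the share of higher genes among those called from 54.9% to 65.6% at day 4, from 52.1% to 36.1% at day 14 and, for day 14 against day 2, from 48.9% to 24.6%.

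Between places, nearly all of the growth factors were higher in the capsule. At day 7, 7 of 8 rose in capsule against lavage cells, all but Tgfb1, where 24.1% of all genes changed, 11.6% higher and 12.5% lower. At day 14, 8 of 8 were higher, where 35.3% of all genes changed, 16.8% higher and 18.4% lower. The members' median difference was 1.58 at day 7 and 2.33 at day 14, against -0.02 for all genes at both days. Lif entered the test only through the capsule groups, where alone both arrays detected it, so its call is no independent count. The day 7 comparison lies within slides 1 and 2. At day 14 the capsule arrays had a slide of their own, so slide and place cannot be told apart, and scaling to medians put the all-gene median at 0.39 and the share of higher genes among those called from 47.7% to 82.7%. Digestion and place cannot be told apart at either day.

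**Figure D1:**
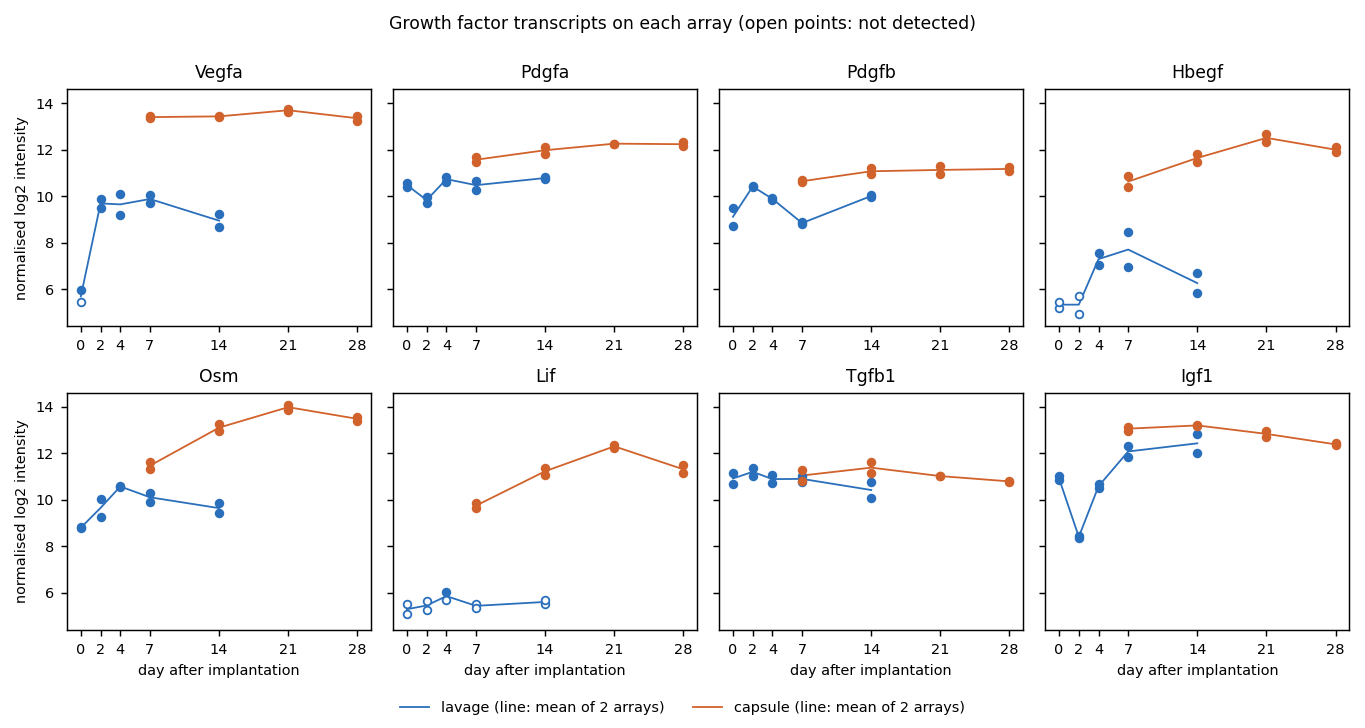
Normalised log2 intensity (vertical axis) of the 8 measured growth factors on each array against day after implantation (horizontal axis), with lavage in blue, capsule in orange, a line through the mean of 2 arrays and open points for arrays that did not detect the probe. Vegfa lies between 13.25 and 13.77 on every capsule array and at most at 10.10 in the lavage, while the Tgfb1 points of both places intermix.

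Vegfa showed the most abrupt early rise of the members. At day 0 the lavage arrays read 5.95 and 5.43, and only the first detected the probe. The day 2 arrays read 9.87 and 9.50, those of day 4 9.19 and 10.10, those of day 7 9.69 and 10.07, and those of day 14 8.66 and 9.23. Every later lavage array lay above both day 0 arrays. The change from day 0 was 4.00 at day 2 (SE 0.28, adjusted p = 2.75e-07) and 3.26 at day 14 (SE 0.28, adjusted p = 1.51e-06). Since day 0 lay near background, the size depends on the processing. Over the 15 alternatives it ran from 2.79 to 4.86 at day 2 and from 2.13 to 4.10 at day 14. The days 2, 4 and 7 overlapped each other.

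In the capsule, Vegfa was high from the first time sampled and stayed level. Its arrays read 13.44 and 13.36 at day 7, 13.45 and 13.41 at day 14, 13.62 and 13.77 at day 21, and 13.45 and 13.25 at day 28. No capsule array overlapped any lavage array. The capsule exceeded the lavage by 3.52 at day 7 (SE 0.28, adjusted p = 8.02e-07), which was 3.75 within slide 1 and 3.29 within slide 2, an 11.5-fold difference. At day 14 the difference was 4.48 (SE 0.28, adjusted p = 6.69e-08), or 22.3-fold. Between day 28 and day 7 the capsule level differed by -0.05 (95% interval -0.65 to 0.55, adjusted p = 0.916). With median scaling that Vegfa difference turned to 0.76 (adjusted p = 0.0436), as the median of all genes also moved, to 0.29.

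Pdgfa and Pdgfb, which encode the 2 classical PDGF chains, were modestly higher in the capsule, and in the lavage they moved in opposite directions at day 2. Pdgfa read 10.55 and 10.40 at day 0, 9.70 and 9.96 at day 2, 10.62 and 10.84 at day 4, 10.66 and 10.28 at day 7, and 10.72 and 10.83 at day 14 in the lavage. It dipped only at day 2, by -0.65 (SE 0.17, adjusted p = 0.0112), and was 0.95 higher at day 14 than at day 2 (SE 0.17, adjusted p = 0.000842). The day 2 call of Pdgfa was lost without replicate 1 of day 0 (-0.57, adjusted p = 0.0834) or of day 2 (-0.52, adjusted p = 0.109).

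Capsule arrays read 11.46 and 11.67 for Pdgfa at day 7, 11.83 and 12.12 at day 14, 12.26 and 12.25 at day 21, and 12.15 and 12.32 at day 28. All 8 lay above all 10 lavage arrays. The difference between places was 1.09 at day 7 (SE 0.17, adjusted p = 0.000306) and 1.20 at day 14 (SE 0.17, adjusted p = 9.14e-05), and it was 0.80 on slide 1 and 1.39 on slide 2 at day 7. From day 7 to day 28 Pdgfa rose by 0.67 in the capsule (SE 0.17, adjusted p = 0.00893). That rise was not called without replicate 1 of capsule day 7 (0.56, adjusted p = 0.0711) or replicate 2 of day 28 (0.58, adjusted p = 0.0699).

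Pdgfb read 8.72 and 9.51 at day 0, 10.41 and 10.42 at day 2, 9.91 and 9.85 at day 4, 8.81 and 8.88 at day 7, and 10.04 and 9.97 at day 14 in the lavage. Day 7 overlapped day 0, and the other days lay above both. The change from day 0 was 1.30 at day 2 (SE 0.21, adjusted p = 0.000339), 0.77 at day 4 (adjusted p = 0.0128) and 0.89 at day 14 (adjusted p = 0.00711). Replicate 1 of day 0 decided the Pdgfb calls at the later days, since without it the change was 0.37 at day 4 (adjusted p = 0.174) and 0.50 at day 14 (adjusted p = 0.0900), while the day 7 change became a fall of -0.67 (adjusted p = 0.0179). Leaving out either day 4 array also ended the day 4 call (0.74 and 0.79, adjusted p = 0.0707 and 0.0513).

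In the capsule Pdgfb read 10.60 and 10.68 at day 7, 10.94 and 11.20 at day 14, 11.28 and 10.97 at day 21, and 11.10 and 11.24 at day 28. Days 14, 21 and 28 overlapped. The capsule exceeded the lavage by 1.799 at day 7 (SE 0.21, adjusted p = 2.64e-05), with nearly equal values on both slides, and by 1.06 at day 14 (SE 0.21, adjusted p = 0.00121). The change from capsule day 7 to day 28 was 0.53 (95% interval 0.09 to 0.97, adjusted p = 0.0658). It was called in 4 of the 13 alternatives run on this probe, up to 1.00 with median scaling (adjusted p = 0.00110).

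Hbegf, an EGF receptor ligand, was high in the capsule on the probe used, which no day 0 or day 2 lavage array detected. The lavage arrays read 5.20 and 5.47 at day 0 and 5.72 and 4.95 at day 2, none of them detected on this probe. A second probe, described further on, was detected on 1 array of each of these days. The first probe's arrays read 7.04 and 7.55 at day 4, 6.95 and 8.46 at day 7, and 5.82 and 6.70 at day 14. Against day 0, Hbegf was at least 3.11-fold higher at day 4 (adjusted p = 0.00329) and at least 4.14-fold higher at day 7 (adjusted p = 0.000744), and the day 14 change of 0.93 was not called (95% interval 0.02 to 1.83, adjusted p = 0.143). The day 7 arrays lay far apart, and the log2 change from day 0 was 1.62 without replicate 2 (adjusted p = 0.0107) and 3.13 without replicate 1 (adjusted p = 0.000130).

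The capsule arrays read 10.37 and 10.88 for Hbegf at day 7, 11.80 and 11.48 at day 14, 12.66 and 12.35 at day 21, and 12.11 and 11.88 at day 28. Each capsule group lay apart from the others and above the lavage. The difference between places was 2.92 at day 7 (SE 0.42, adjusted p = 0.000188), with 3.42 on slide 1 and 2.42 on slide 2 (3.68 without replicate 2 of lavage day 7 and 2.17 without its replicate 1), and 5.38 at day 14 (SE 0.42, adjusted p = 5.15e-07), a 41.6-fold difference. The day 14 lavage arrays lay near background, so that fold is imprecise. Over the 13 alternatives on this probe the day 14 log2 difference ran from 4.35 to 5.95. The day 14 difference exceeded the day 7 difference by 2.46 (SE 0.60, adjusted p = 0.0173). Hbegf rose by 1.37 from capsule day 7 to day 28 (SE 0.42, adjusted p = 0.0248). Both of these calls were lost with the authors' values (2.81, adjusted p = 0.0823, and 1.38, adjusted p = 0.132), and the first also with only its groups in the fit (adjusted p = 0.0538). Without replicate 1 of lavage day 7 the first was 3.21 (adjusted p = 0.00333). Leaving out 1 array lost the first without replicate 1 of lavage day 14 (2.02, adjusted p = 0.0763), replicate 2 of lavage day 7 (1.70, adjusted p = 0.0619), replicate 1 of capsule day 7 (2.20, adjusted p = 0.0620) or replicate 1 of capsule day 14 (2.29, adjusted p = 0.0502), and the Hbegf rise to day 28 without replicate 1 of capsule day 7 (1.11, adjusted p = 0.147) or either day 28 array (1.25 and 1.48, adjusted p = 0.112 and 0.0679).

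Ereg, another EGF receptor ligand, read from 4.71 to 5.26 over both of its probes and all arrays, with 0 of 18 arrays detected for either. Those readings carry no order between groups.

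Osm, a cytokine made largely by activated myeloid cells, rose in both places. The lavage arrays read 8.82 and 8.78 at day 0, 10.05 and 9.26 at day 2, 10.59 and 10.56 at day 4, 9.91 and 10.31 at day 7, and 9.42 and 9.87 at day 14. All later arrays lay above day 0, highest at day 4 with a change of 1.77 (SE 0.24, adjusted p = 0.000114). The changes were 0.85 at day 2 (adjusted p = 0.0176), 1.31 at day 7 (adjusted p = 0.000949) and 0.84 at day 14 (adjusted p = 0.0237). The day 14 call of Osm was lost with the replicate number as a block (adjusted p = 0.0538), with median scaling (0.58, adjusted p = 0.164), without either day 0 array (0.86 and 0.82, adjusted p = 0.0887 and 0.111) and without replicate 2 of day 14 (0.62, adjusted p = 0.167), and the day 2 call without either day 0 array (adjusted p = 0.0697 and 0.0858) or replicate 1 of day 2 (0.45, adjusted p = 0.239).

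Capsule levels of Osm were 11.62 and 11.32 at day 7, 12.95 and 13.25 at day 14, 13.88 and 14.09 at day 21, and 13.57 and 13.40 at day 28. The groups did not overlap, and day 21 was highest. Capsule exceeded lavage by 1.36 at day 7 (SE 0.24, adjusted p = 0.000907), with 1.71 on slide 1 and 1.00 on slide 2, and by 3.46 at day 14 (SE 0.24, adjusted p = 1.72e-07). The difference between the days was 2.10 (SE 0.34, adjusted p = 0.00178). From day 7 to day 28 Osm rose by 2.01 in the capsule (SE 0.24, adjusted p = 6.29e-05).

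Lif, the leukaemia inhibitory factor, was detected on every capsule array and hardly at all in the lavage. Across the 10 lavage arrays it read 5.10 to 6.03 and was detected on 1, replicate 1 of day 4. The called day 4 rise was at least 1.15-fold (adjusted p = 0.0485). It was lost without replicate 1 (0.40, adjusted p = 0.297) or replicate 2 of day 4 (0.73, adjusted p = 0.0516), and without replicate 2 of day 0 (0.36, adjusted p = 0.340).

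In the capsule Lif read 9.87 and 9.64 at day 7, 11.37 and 11.08 at day 14, 12.23 and 12.37 at day 21, and 11.49 and 11.13 at day 28. Day 21 lay above the rest, and days 14 and 28 overlapped. Lif was at least 16.7-fold higher than in the lavage at day 7 (adjusted p = 5.43e-09) and at least 42.9-fold higher at day 14 (adjusted p = 3.18e-10). The log2 differences at the 2 days, both against undetected lavage arrays, differed by 1.31 (SE 0.28, adjusted p = 0.00880), which was not called with the authors' values (1.11, adjusted p = 0.211). Lif rose by 1.56 from capsule day 7 to day 28 (SE 0.20, adjusted p = 0.000104).

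From day 21 to day 28, on 1 slide, Lif fell by 0.99 (SE 0.20, adjusted p = 0.0298). It was the only 1 of the 8 members called there, where 0.935% of all genes tested changed, 0.25% higher and 0.685% lower. This Lif call did not hold without any 1 of the 4 arrays, with changes of -1.06 and -0.92 without day 21 replicate 1 and 2 and of -1.17 and -0.81 without day 28 replicate 1 and 2 (adjusted p = 0.0784, 0.183, 0.0538 and 0.190), nor with the authors' values (-0.99, adjusted p = 0.295). The other members had 95% intervals that included 0, among them Osm (-0.50, -1.02 to 0.01), Hbegf (-0.51, -1.41 to 0.40) and Vegfa (-0.34, -0.94 to 0.25).

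Tgfb1 varied least among the measured members. Its lavage arrays read 10.67 and 11.16 at day 0, 11.37 and 11.04 at day 2, 11.08 and 10.70 at day 4, 10.79 and 11.01 at day 7, and 10.07 and 10.77 at day 14. Capsule arrays read 11.28 and 10.81 at day 7, 11.14 and 11.63 at day 14, 11.004 and 11.04 at day 21, and 10.82 and 10.76 at day 28. In the order of group means, every neighbouring pair of groups overlapped.

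The difference of Tgfb1 between places was 0.15 at day 7 (95% interval -0.41 to 0.70, adjusted p = 0.742) and 0.96 at day 14 (SE 0.26, adjusted p = 0.0104). The day 14 call was lost without replicate 1 of lavage day 14 (0.61, adjusted p = 0.133) or replicate 2 of capsule day 14 (0.71, adjusted p = 0.108). In the lavage Tgfb1 fell by 0.78 from day 2 to day 14 (SE 0.26, adjusted p = 0.0387). The fall was not called with the replicate number as a block (adjusted p = 0.0714) or with the authors' values (-0.79, adjusted p = 0.0560), nor with the 12 arrays of slides 1 and 2 and no block (adjusted p = 0.0551), no detection filter (adjusted p = 0.0603) or only its groups in the fit (adjusted p = 0.0954), nor without either day 2 array (-0.61 and -0.95, adjusted p = 0.221 and 0.0519) or replicate 1 of day 14 (-0.43, adjusted p = 0.330).

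Igf1 followed a course of its own, with a deep early trough in the lavage. Its lavage arrays read 10.83 and 11.003 at day 0, 8.46 and 8.36 at day 2, 10.49 and 10.69 at day 4, 11.82 and 12.33 at day 7, and 12.02 and 12.84 at day 14. The 2 arrays of day 2 lay below all others, a change of -2.51 from day 0 (SE 0.23, adjusted p = 2.94e-06), and Igf1 was then 16.2-fold higher at day 14 than at day 2 (log2 change 4.02, SE 0.23, adjusted p = 5.16e-08). Days 7 and 14 exceeded day 0 by 1.16 (adjusted p = 0.00182) and 1.51 (adjusted p = 0.000344). At day 2 the resident peritoneal macrophage genes also fell, 7 of 8 tested, and their summed linear level went from 119106-129475 to 14028-18085. Neutrophil genes, led by S100a8 and S100a9, rose, 6 of 10, from 10170-10396 to 58063-84351, where 13.3% of all genes were higher and 11.7% lower. The part of these shifts in the changes of Igf1, Vegfa, Pdgfb and Osm was not tested.

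Capsule arrays of Igf1 read 12.97 and 13.15 at day 7, 13.16 and 13.24 at day 14, 12.69 and 12.98 at day 21, and 12.43 and 12.34 at day 28. Day 28 lay below the other capsule groups. Capsule exceeded lavage by 0.98 at day 7 (SE 0.23, adjusted p = 0.00697), with 1.15 on slide 1 and 0.81 on slide 2, and by 0.77 at day 14 (SE 0.23, adjusted p = 0.0189). These calls were lost at day 7 without replicate 1 of the lavage (0.72, adjusted p = 0.0849) or replicate 2 of the capsule (0.89, adjusted p = 0.0533), and at day 14 without replicate 1 of the lavage (0.36, adjusted p = 0.246) or either capsule array (0.81 and 0.73, adjusted p = 0.0536 and 0.0880) or with only its groups in the fit (adjusted p = 0.0899). From day 7 to day 28 Igf1 fell by 0.67 in the capsule (SE 0.23, adjusted p = 0.0403), a call lost without any 1 of the 4 arrays (adjusted p = 0.0808 to 0.175, changes -0.76 to -0.59) and with median scaling (-0.05, adjusted p = 0.872) or the authors' values (adjusted p = 0.0565) or no detection filter (adjusted p = 0.0599).

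Over the capsule's own course, 4 of the 8 growth factors rose from day 7 to day 28 (Pdgfa, Hbegf, Osm, Lif) and 1 fell (Igf1), where 31.2% of all genes tested changed, 16.2% higher and 15% lower. The median change was 0.60 for the members and 0.01 for all genes. In the same comparison fibroblast genes rose in 3 of 6, neutrophil genes fell in 5 of 10, and myeloid identity genes rose in 0 and fell in 4 of 8. The summed level went from 12239-15371 to 15982-17064 for fibroblast genes, from 8054-10696 to 2191-3274 for neutrophil genes and from 121171-126042 to 93167-98601 for myeloid identity genes. Each sum is led by the brightest genes of its list. The part of these lists in the changes of the growth factors was not tested. Day 7 and day 28 lie on different slides, so slide and day cannot be told apart here. With median scaling the share of higher genes among those called went from 52.0% to 78.8%. The difference of the places was itself larger at day 14 than at day 7 for 3 of 8 members, Hbegf, Osm and Lif, where 11.5% of all genes differed in either direction, 4.66% higher and 6.81% lower. For that test, too, slide and capsule day cannot be told apart, and scaling to medians put the all-gene median at 0.53, the share of higher genes among those called from 40.6% to 90.0%, and the interactions of Pdgfb and Igf1, -0.74 and -0.21 and neither called, turned to 0.12 and 0.63.

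**Figure D2:**
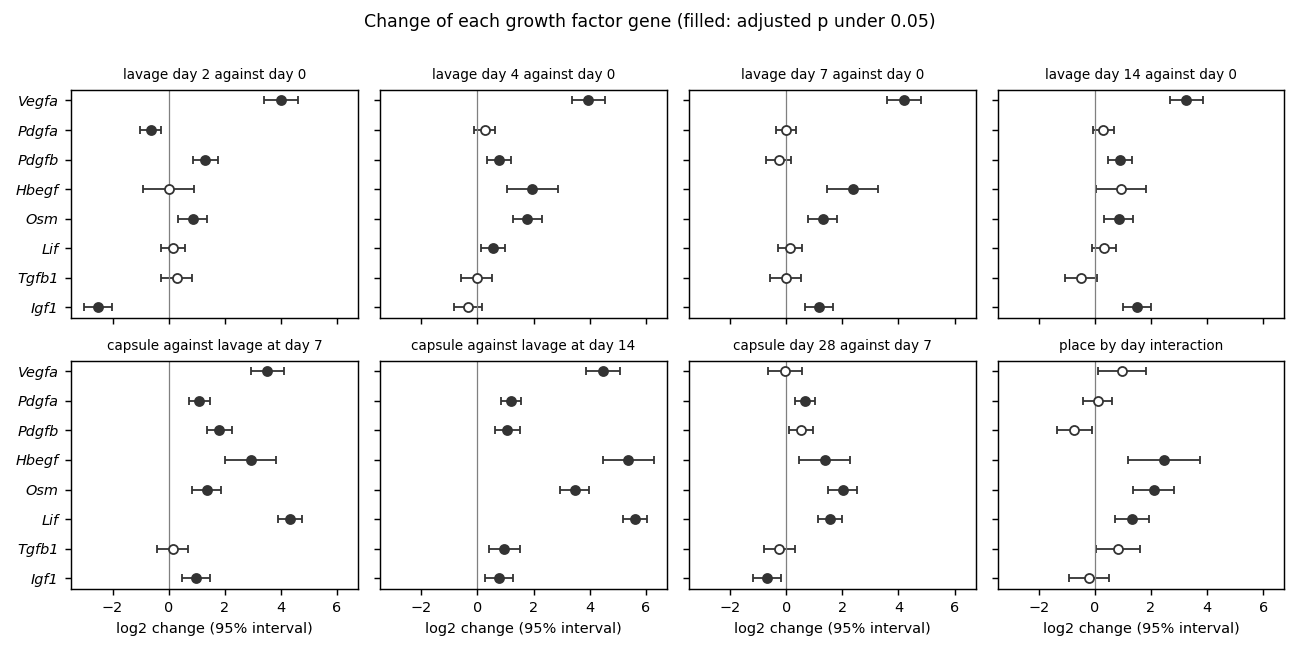
Log2 change of each growth factor (points, with 95% intervals) in 8 comparisons, 1 per panel, filled where the adjusted p is under 0.05; the horizontal axis is the group named first minus the second, and the interaction is the difference between places at day 14 less that at day 7. Hbegf reaches 5.38 at day 14, the Lif points between places are fitted against lavage arrays that did not detect it and are no exact differences, and Tgfb1 stays within 0.96 of 0.

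Several members had more than 1 probe, and the probes did not always tell the same story. The second Osm probe gave differences between places of 1.61 at day 7 (adjusted p = 0.00329) and 3.30 at day 14 (adjusted p = 9.75e-06), and the second Pdgfa probe 0.65 (adjusted p = 0.0104) and 1.77 (adjusted p = 4.46e-06). The second Pdgfa probe also had a called interaction, 1.12 (adjusted p = 0.00751), where the first gave 0.10, and a called lavage rise at day 4 (0.50, adjusted p = 0.0342). Its capsule arrays were highest at day 14, 11.01 and 11.08, and read 10.60 and 10.52 at day 28. For Osm the second probe missed the threshold in the lavage at day 2 (0.59, adjusted p = 0.279) and day 14 (0.92, adjusted p = 0.0792).

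The second Hbegf probe, annotated to a cDNA clone rather than the RefSeq transcript, was flatter. It read 6.11 and 6.23 on the capsule arrays of day 7 against 6.56 and 5.58 in the lavage, a difference of 0.10 (adjusted p = 0.930). At day 14 its difference was 1.26 (adjusted p = 0.0144), and it rose by 1.05 from capsule day 7 to day 28 (adjusted p = 0.0434). The Hbegf interaction was not called on it (1.16, adjusted p = 0.192). Its lavage changes from day 0 were 0.39 at day 4 (adjusted p = 0.572) and 0.45 at day 7 (adjusted p = 0.502). So the Hbegf difference at capsule day 7, the size of that at day 14, its interaction and its called lavage rises rest on 1 of 2 probes.

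The second Pdgfb probe was detected on 4 of 18 arrays, all capsule, and its difference between places was not called at day 7 (0.28, adjusted p = 0.741) or day 14 (0.20, adjusted p = 0.780), while it rose by 1.02 from capsule day 7 to day 28 (adjusted p = 0.0498). Lif had 3 further probes, detected on 1, 0 and 0 arrays, whose differences between places were 0.04 to 0.30 at the 2 days, with adjusted p = 0.592 to 0.861. The Lif result therefore comes from 1 of 4 probes. Vegfa, Tgfb1 and Igf1 had 1 probe each.

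**Figure D3:**
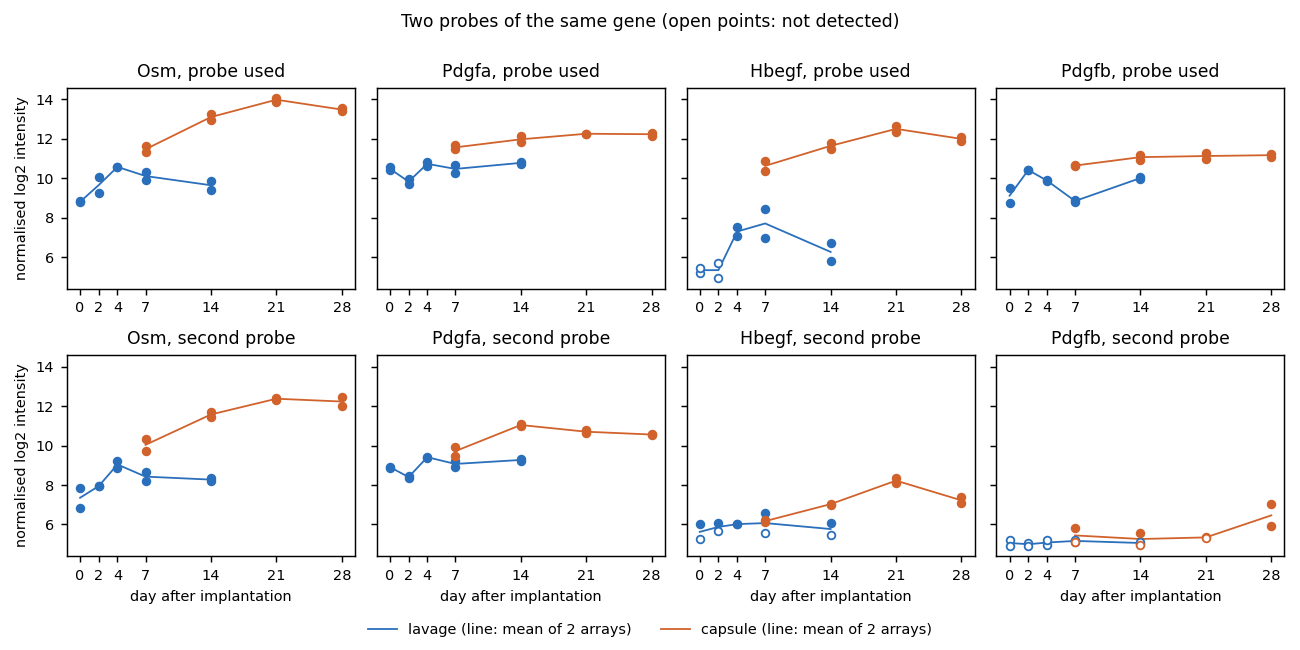
Normalised log2 intensity (vertical axis) against day after implantation (horizontal axis) for the probe used (upper row) and the second probe (lower row) of Osm, Pdgfa, Hbegf and Pdgfb, with lavage in blue, capsule in orange, lines through means of 2 arrays and open points not detected. Both Osm probes rise from capsule day 7 to day 28, the second Pdgfa probe is highest at capsule day 14 (11.01 and 11.08), the second Hbegf probe shows no gap at day 7 (0.10) and the second Pdgfb probe is detected on 4 arrays.

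Ligands of the same families outside the 10 changed unevenly. In a list of 24 further ligands, 18 were tested, and 6 rose and 1 fell in day 7 capsule cells relative to the lavage, and 10 and 1 in those of day 14. The list's median difference was 0.55 and 0.87. These counts, and those between places in the lists that follow, stand beside shares of all genes. The shares were 11.6% higher and 12.5% lower at day 7, and 16.8% and 18.4% at day 14. No lavage array detected Vegfc, Tgfb3, Fgf2 or Adm of this list. The same held for Osmr, Pdgfra, Ltbp2, Ltbp4, Igfbp3, Igfbp5, Igfbp7, Dusp4, Ccn2, Col1a1 and Mmp8 of the lists that follow. All of these entered the test only through the capsule groups, so their calls are no independent counts. Adm, which encodes the vasoactive peptide adrenomedullin, was at least 8.58-fold and 17.7-fold higher (adjusted p = 9.84e-09 and 5.56e-10). Il6, the founder of the gp130 cytokine family, was higher by 2.96 and 2.97 (adjusted p = 2.90e-06 and 1.86e-06), and Tgfb3 was at least 6.89-fold higher at day 7 and 5.05-fold at day 14 (adjusted p = 1.79e-07 and 2.73e-07). The 1 ligand that fell at both days was Tgfb2 (-2.86 and -2.90, adjusted p = 0.00125 and 0.000735). In the lavage at day 2, 1 of the 18 rose and 7 fell, led by Vegfb (-1.58, adjusted p = 6.44e-06), Tgfb2 (-4.94, adjusted p = 1.05e-05) and Igf2 (-1.77, adjusted p = 1.93e-05). Of all genes 13.3% were higher and 11.7% lower at that day.

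Of 16 receptors for these ligands, 13 were tested, and 4 rose at day 7 and 9 at day 14 in capsule against lavage cells, 0 fell, where 24.1% and 35.3% of all genes changed, with median differences of 0.27 and 0.67. Flt1, a VEGF receptor, was higher by 2.89 and 2.65 (adjusted p = 1.27e-05 and 1.57e-05), and Nrp2, a neuropilin co-receptor, by 1.57 and 1.34. Flt1 also rose in the lavage itself, by 3.76 at day 7 (adjusted p = 7.97e-07) and 4.68 at day 14 (adjusted p = 1.09e-07). Il6st, which encodes gp130, was higher by 1.12 and 0.78 (adjusted p = 0.00443 and 0.0240). Osmr, the oncostatin M receptor, was not detected on any array of either place at day 7, and was at least 2.96-fold higher in the capsule at day 14 (adjusted p = 8.14e-08), where no lavage array detected it. From capsule day 21 to day 28 Osmr fell by 1.03 (adjusted p = 0.00669).

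Genes that release or hold these ligands moved in both directions. Of 19 listed, 16 were tested, and 6 rose and 3 fell at day 7, 9 and 2 at day 14, in capsule against lavage. Itgav, the integrin chain that activates latent TGF-beta, was higher by 1.69 and 2.42 (adjusted p = 9.77e-06 and 2.35e-07), and Adam17, the sheddase of EGF receptor ligands, by 0.97 and 1.00. Igfbp7, a secreted IGF-binding protein, was at least 2.27-fold and 3.01-fold higher. Adam10, a related sheddase, differed by 0.17 at day 7 (adjusted p = 0.479) and was lower by -2.36 at day 14 (adjusted p = 8.71e-08).

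Feedback inhibitors of the pathways were higher in the capsule. Of 13 listed, 7 were tested, and 5 rose at day 7 and 6 at day 14, with 0 lower and medians of 1.85 and 2.13. Errfi1, an EGF receptor inhibitor, rose by 2.96 and 4.91 (adjusted p = 2.99e-08 and 2.27e-10). Dusp4 and Dusp5 encode MAP kinase phosphatases, and Dusp4 was at least 7.96-fold and 7.87-fold higher. From capsule day 7 to day 28, 3 of the 7 rose and 0 fell, Errfi1 by 1.70 (adjusted p = 1.28e-05), where 16.2% of all genes were higher and 15% lower. With median scaling 6 rose, and 78.8% of all genes called were then higher.

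Target genes of the pathways were examined in 3 lists. Of 10 STAT3 targets, all tested, 6 rose and 1 fell at day 7 and 5 rose and 0 fell at day 14 between places, with Socs3 (1.85 and 1.97), Junb (1.61 and 2.46) and Timp1 (2.00 and 2.99) among them. Socs3 also stands in the inhibitor list. With median scaling 9 rose at day 14, and 82.7% of all genes called were then higher. Of 11 TGF-beta targets, 9 were tested, with 5 higher and 1 lower at day 7 and 6 higher and 0 lower at day 14. Tgif1, a transcriptional repressor in that pathway, was higher by 1.796 and 1.67 (adjusted p = 3.15e-06 and 3.81e-06), while Id1 was at least 2.03-fold lower in the capsule at day 7 (adjusted p = 0.00288).

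Of 15 hypoxia-inducible genes other than Vegfa, 12 were tested, and 10 rose at day 7 and 11 at day 14 in the capsule, with 0 lower and medians of 1.36 and 1.34. They included Ndrg1 (3.67 and 3.25), Slc2a1, the glucose transporter GLUT1 (2.48 and 2.07), and Adm, which the ligand list also holds. In the lavage the list already rose at day 2, 7 higher and 1 lower, with Ndrg1 up by 2.88 (adjusted p = 3.24e-07) and Ankrd37 by 2.48 (adjusted p = 4.22e-07). Of all genes 13.3% were then higher and 11.7% lower. At day 14 of the lavage 7 were higher and 1 lower than at day 0, beside 10.3% and 9.5% of all genes. In the capsule from day 7 to day 28, 2 rose and 1 fell, beside 16.2% of all genes higher and 15% lower. With median scaling 8 rose and 0 fell, and 78.8% of all genes called were then higher.

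Immediate early and heat shock genes, a list that cell dissociation is known to raise, moved with the place as well. Of 16 listed, 13 were tested, and 12 were higher in capsule than in lavage cells at both days, 0 lower, with medians of 2.43 and 2.97. Ier3 rose by 2.87 and 3.64 (adjusted p = 2.73e-08 and 1.77e-09), Zfp36 by 2.36 and 2.97, Fos by 3.08 at day 7 and Fosb by 7.37 at day 14. The list's summed linear level was 25812 to 27023 in day 7 lavage and 139910 to 151378 in day 7 capsule arrays. In the lavage, which was not digested, 7 of the 13 rose at day 2 and 8 at day 4 against day 0, with 0 lower. At day 7 and again at day 14, 2 rose and 2 fell, and 0 rose and 8 fell from day 2 to day 14. Of all genes, 13.3%, 15.4%, 15.1% and 10.3% were higher at days 2, 4, 7 and 14 against day 0. The shares lower were 11.7%, 12.6%, 13.5% and 9.5%, and from day 2 to day 14 12.7% were higher and 13.2% lower. The part of this list in the growth factor differences was not tested.

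Markers of other cells moved with the place too. Of 10 fibroblast genes, 6 were tested, since Col1a2, Col3a1, Lum and Postn did not pass the detection filter. At day 7, 2 rose (Pdpn, 4.01, and Dcn, 2.34) and 4 were not called, with a list median of 0.48, while Pdgfra was detected on no array of either group. Pdpn was also called higher in the lavage at days 2, 4, 7 and 14 than at day 0. At day 14, 4 rose and 1 fell, with Dcn at least 28.6-fold higher and Col1a1 at least 2.00-fold higher (adjusted p = 0.00313). The summed fibroblast level was 1011 to 1176 in day 7 lavage and 12239 to 15371 in day 7 capsule arrays, 651 to 712 and 11320 to 12232 at day 14. Such a sum is led by the brightest genes of its list and does not show that the 6 genes rose alike. Endothelial genes rose in 2 of 5 tested at day 7 and 3 of 5 at day 14, platelet genes in 3 of 4 and 1 of 4. The summed endothelial level was 2073 to 2346 in the lavage and 3356 to 4606 in the capsule at day 7, with Cldn5 undetected in both, and the summed platelet level 5550 to 6333 and 11744 to 12945. Mesothelial genes rose in 1 of 4 at both days, smooth muscle genes in 0 of 2, and T and NK cell genes in 0 of 5. Resident macrophage genes fell in 6 and 5 of 8. B cell genes rose in 1 and fell in 4 of 6, and mast cell and eosinophil genes fell in 5 of 7 at day 7 and 0 at day 14. Neutrophil genes rose in 2 and fell in 1 of 10 at day 7 and rose in 1 at day 14, monocyte genes fell in 1 of 4 at day 7 and rose in 1 and fell in 2 at day 14, and dendritic cell genes rose in 1 and fell in 2 of 5 at both days. Of the 8 myeloid identity genes tested, 1 rose and 0 fell in the capsule at day 7, and 1 rose and 3 fell at day 14. Their summed level was 134716 to 138282 in the lavage and 121171 to 126042 in the capsule at day 7. At day 14 it was 130916 to 133596 and 109619 to 116569. The part of other cells in the growth factor differences was not tested.

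**Figure D4:**
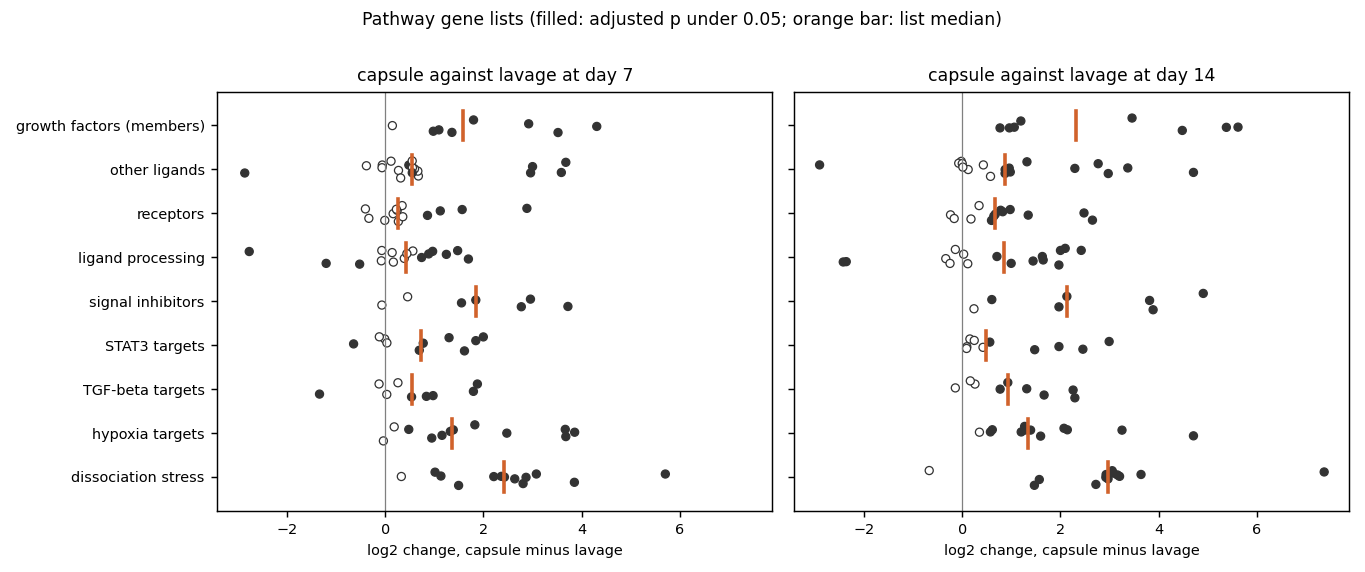
Log2 difference, capsule minus lavage (horizontal axis), of each tested gene in the growth factor set and 8 pathway lists (vertical axis) at day 7 and day 14, with filled points for adjusted p under 0.05 and an orange bar at each list's median. The growth factor median is 1.58 and 2.33, that of the dissociation stress list 2.43 and 2.97, and that of the receptors 0.27 and 0.67.

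Over the 18 arrays, Pearson correlations were 0.963 (Hbegf and Osm), 0.960 (Hbegf and Lif) and 0.961 (Osm and Lif). They were nearly as high for Pdgfa with Lif (0.943), Hbegf (0.934) and Osm (0.912), and for Vegfa with Hbegf (0.917), Osm (0.903) and Lif (0.886). Lif was near background in the lavage and has no course there, so such values largely follow the step between places. At lavage day 2 Osm was called higher, while the Hbegf probe used was not detected. All correlations given here are descriptions over arrays that share groups and slides. Tgfb1 correlated with the other members at -0.05 to 0.30. Among all genes tested, the course closest to that of Vegfa was Gpc1 (0.987), then Trem2 (0.977) and Ap1b1 (0.976). Lif was closest to Errfi1 (0.992), Igfbp7 (0.991) and Adm (0.989), Osm to Cdkn1a (0.986), Rnf19b (0.980) and Csrnp1 (0.975), and Hbegf to Serpinh1 (0.979), Tuba8 (0.977) and Rnf19b (0.975). No lavage array detected Igfbp7 or Adm, and both entered the test only through the capsule groups, as Lif did. Their correlations with Lif therefore largely restate that filter. Pdgfa was closest to Kdelr3 (0.975), Plpp3 (0.961) and Pde4b (0.959), and Pdgfb to Jund (0.932), Tmx4 (0.929) and Furin (0.918). Igf1 followed Copz2 (0.936), Mr1 (0.930) and Chchd10 (0.918). The closest to Tgfb1 were Pld2 (0.794), Ppp1r11 (0.779) and Icam1 (0.773).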

How the data were processed

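RNA of sorted cells was hybridised to 18 bead arrays of 46632 probes. The deposited non-normalised table holds, per the file headers, linear intensity plus a p-value of detection, per probe and array. The authors' deposited log2 values are quantile normalised; BeadStudio and R 2.15.3 are named in the submitters' processing notes, with any background step not given in the sources used here. Against intensity, their Spearman correlation over probes was 1.00 on each array, and the column of the first array has a median of 3.79.

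Intensities were corrected and normalised with neqc (limma 3.58.1, R 4.3.3; offset 16, controls inferred from detection p-values). A probe was kept if some group had it detected (p 0.05) on both its arrays, which left 20985. Of all probes 29976 had 1 gene symbol, 10 several and 16646 none. The brightest kept probe by mean stood for its gene (10806 genes). Limma was fitted with 1 mean per group (9 residual and 4.58 prior degrees of freedom), 2-sided, with p-values adjusted by Benjamini-Hochberg for each of 10 comparisons alone. A gene undetected on every array of a group has only a bound there, given as "at least N-fold": the brighter group's mean against, on each array, whichever is higher of its own reading and the dimmest detected probe's. The fit was tested on simulated data.

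The members, lists and tests were chosen with earlier results of these data known. Named were the members, up to 3 called genes of smallest p per list, and the 3 genes most correlated with each member; other genes named from a list were chosen after their values were seen. The labels give same-numbered arrays of 6 groups a shared slide, which pairs them; their deviations from group means correlated at -0.11 to 0.13 over 15 pairs of groups (1 above 0.1). The alternatives, with their effect, stand in the closing section. No 2 arrays held identical values.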

Additional observations from a re-analysis of the deposited data

Results flagged for a closer look

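The difference between capsule and lavage cells was itself different at day 14 and day 7 for 3 members by the test of that difference (limma, all 18 arrays). It was larger at day 14 by 2.46 for Hbegf (adjusted p = 0.0173), by 2.10 for Osm (adjusted p = 0.00178) and by 1.31 for Lif (adjusted p = 0.00880), on the log2 scale. For Hbegf the capsule means were 10.63 and 11.64 and the lavage means 7.70 and 6.26 at day 7 and 14. For Osm they were 11.47 and 13.10 in the capsule and 10.11 and 9.64 in the lavage. For Lif they were 9.75 and 11.23 in the capsule, with no lavage array of these days detected. Capsule day 14 had a slide of its own, so slide and day cannot be told apart. With the authors' values only Osm was called. The second Hbegf probe did not have this difference called (1.16, adjusted p = 0.192), nor did any other probe of Lif.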

How the results depend on the processing

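Of the calls on single members, the sign held for the probe used in every alternative. Median scaling gave 5 members changed for lavage day 14 against day 2 (3 with quantiles) and 6 for the interaction (3), where Vegfa (2.05), Pdgfa (0.92) and Tgfb1 (1.55) were added. The authors' values gave 3 members for capsule day 28 against day 7 (5), 0 for day 28 against day 21 (1) and 1 for the interaction (3). With only the groups compared in the fit, 3 were called for lavage day 4 against day 0 (5) and 0 for capsule day 28 against day 21 (1), and with so few arrays fewer degrees of freedom remain. That fit also lost Osm at lavage day 2 and Pdgfb at day 4 and day 14 (adjusted p = 0.0777, 0.0709 and 0.0675). Without 1 array at a time, the number of members changed ranged from 3 to 5 for lavage day 2, 3 to 4 for day 4 and 2 to 4 for day 14 against day 0, from 2 to 4 for day 14 against day 2 and for capsule day 28 against day 7, and from 2 to 3 for the interaction, and it was 0 for day 28 against day 21 each time. It was 6 to 8 for capsule against lavage at day 14, 6 to 7 at day 7 and 4 to 5 for lavage day 7.

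With the replicate number as a block on the 12 arrays of slides 1 and 2, the calls of Osm at lavage day 14 (0.84, adjusted p = 0.0538) and of Tgfb1 for day 14 against day 2 (-0.78, adjusted p = 0.0714) were lost, and no other member's call changed. Slide as a random block (correlation -0.06) lost Lif at lavage day 4 (adjusted p = 0.0688). That Lif call was also lost with normexp at offset 50 (0.32), with uncorrected intensities (0.34), with median scaling (0.55), no detection filter, all probes tested, only its groups, and the 12 arrays without the block. Pdgfb for capsule day 28 against day 7 gained a call with normexp at offset 50, uncorrected intensities, median scaling (1.00) and only its groups, and Vegfa for lavage day 14 against day 2 with the first 3 and without replicate 2 of day 14 (-1.06 to -0.66).

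On the second Pdgfb probe, undetected in the lavage, the called rises at lavage day 2 (-0.0641) and day 14 (-0.000896) turned sign. The other changes that turned were not called. With median scaling these were Hbegf at lavage day 2 (-0.0102), Tgfb1 at lavage day 4 (0.13) and day 7 (0.0737), Pdgfa at lavage day 7 (0.10), Tgfb1 (0.18) and Vegfa (0.76, then called) for capsule day 28 against day 7, and the interactions of Pdgfb (0.12) and Igf1 (0.63). Hbegf at lavage day 2 turned without background correction (-0.0575) and with the authors' values (-0.0667). On second probes, Hbegf (-0.10) and Osm (0.33) turned for lavage day 14 against day 2, Pdgfa at lavage day 7 (0.16), and Pdgfb at lavage day 7 (0.10) and for day 14 against day 2 (0.0632). Without 1 array at a time, the ranges that crossed 0 were -0.38 to 0.39 for Hbegf at lavage day 2, -0.0448 to 0.36 for Lif at day 2, -0.0592 to 0.35 for Lif, -0.20 to 0.19 for Pdgfa, -0.67 to 0.12 for Pdgfb and -0.26 to 0.23 for Tgfb1 at day 7, and -0.27 to 0.22 for Tgfb1 at day 4. They were -0.0216 to 0.33 for Lif and -0.41 to 0.39 for Osm for day 14 against day 2, -0.0892 to 0.38 for Tgfb1 between places at day 7, -0.15 to 0.0492 for Vegfa from capsule day 7 to 28, -0.11 to 0.0617 for Pdgfa and -0.11 to 0.20 for Pdgfb from day 21 to 28, and -0.62 to 0.20 for Igf1 and -0.0910 to 0.29 for Pdgfa in the interaction. The cause was not tested.

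Counts of all genes called moved by over 1.5 times for the interaction (1240) with median scaling (3724) and only its groups (790), for lavage day 14 against day 2 (2796) with only its groups (1829), and for capsule day 28 against day 21 (101) without background correction (161), with the authors' values (48), all probes (177) and only its groups (1). Without 1 array they fell at most to 1772 from 2703 at lavage day 2, 1915 from 3024 at day 4, 2043 from 3091 at day 7, 1297 from 2144 at day 14, 1693 from 2603 between places at day 7, 2070 from 3368 for capsule day 28 against day 7, 752 for the interaction and 16 for day 28 against day 21. Levels near background, as of Hbegf and Lif in the lavage and of Vegfa at lavage day 0, limit what the arrays can show.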

Other observations

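Within the capsule, ligands outside the 10 members moved in different directions from day 7 to day 28. Vegfd, a lymphangiogenic VEGF, rose by 2.61 (adjusted p = 7.75e-06) and Adm by 1.59 (adjusted p = 4.39e-05), while Angpt2, a destabiliser of vessels, changed by -2.91 (adjusted p = 0.000119). Of the 18 tested, 7 rose and 3 fell, where 31.2% of all genes changed, 16.2% higher and 15% lower. Among genes that hold IGF, Igfbp6 rose by 1.59 (adjusted p = 0.000157), Igfbp5 was at least 2.49-fold higher (adjusted p = 0.000116) and Igfbp4 changed by -1.95 (adjusted p = 9.05e-05). The Igf1 change, -0.67, did not hold in every alternative and ran from -0.76 to -0.05 over the 13 run. TGF-beta targets rose in 4 of 9 and fell in 0, beside the same shares of all genes, with Pmepa1 up by 1.89 (adjusted p = 6.60e-05) and Id3 by 1.69 (adjusted p = 0.000348), while the Tgfb1 change was -0.25 (95% interval -0.81 to 0.30). Slide and day cannot be told apart in this comparison.

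In the lavage, Hgf, a growth factor for epithelium and endothelium, was at least 4.62-fold lower at day 7 than at day 0 (adjusted p = 2.84e-07) and at least 4.27-fold lower at day 14 (adjusted p = 1.13e-07). The tissue inhibitor of metalloproteinases Timp1, a STAT3 target, rose by 4.73 at day 2 (adjusted p = 8.96e-08) and 4.09 at day 4 (adjusted p = 4.14e-07).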
